A study of Mus musculus with 12 samples.

Results

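The genes described here had mean levels in tumor-egressed CD8+ T cells outside those of both other populations of the study. They were chosen by 1 model of 3 groups, in which 4 egressed libraries were tested against the average of the group means of 4 tumor-retained and 4 spleen libraries. A gene is a member when it passed that contrast and the egressed group lay above both other groups or below both. Of 21457 genes tested, 11 passed at an adjusted p of at most 0.05, a share of 0.0513%, and 9 of them lay outside both other groups, a share of 0.0419%. Above both lay Jun, Fos, Klra13-ps, Gas5, Tmsb4x, Bin2 and Dapl1, and below both lay Mxi1 and Atp13a3. Of the 9, only Jun and Atp13a3 also passed the tests against each other site taken alone. The other 2 genes past the contrast, Ighm and Slc16a5, had egressed levels between those of the other groups, nearer to spleen on the log scale. For Ighm this place depended on the filter of low genes. Under a stricter filter its log2 fold change against spleen was 0.002 (edgeR adjusted p = 0.998), and it counted as above both.

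All 12 libraries were made from sorted CD44+ CD8+ T cells of Kaede-Tg mice carrying implanted YUMMER1.7 tumors, a mouse melanoma line. Kaede is a fluorescent protein that violet light turns from green to red, and tumors were photoconverted on day 11, with tissues taken on day 12. Egressed cells were Kaede red+ cells found in the lymph node that drains the tumor, tumor-retained cells were Kaede red+ cells still in the tumor, and spleen cells are described with no Kaede gate. The groups therefore differ in tissue of origin as well as in history, and these cannot be told apart. The samples came from 4 mice, and the labels do not say that libraries with the same number share a mouse. In bulk RNA, fewer cells of a type and less RNA per cell cannot be told apart.

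CD8+ T cells activated in lymphoid tissue travel to tumors, and some leave again through lymphatic vessels that drain to the lymph node. In T cells, signals from the antigen receptor, from stress or from tissue handling raise immediate early genes such as Fos and Jun, whose proteins pair to form the transcription factor AP-1. Quiescent, circulating T cells keep a store of ribosomal protein transcripts, many of which start with a pyrimidine tract that ties their translation to growth signals, whereas activated T cells run glycolysis at a high rate.

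Total counts came to 22.7 to 29.2 M (mega) per library in the egressed group, 25.6 to 36.3 M in the tumor-retained group and 27.3 to 33.4 M in the spleen group. Genes with at least 1 count numbered 14927 to 25916 in egressed, 15296 to 21306 in tumor-retained and 30658 to 32165 in spleen libraries, with egressed libraries 3 and 4 and tumor-retained library 1 the lowest of the 12. Correlations within a group were 0.775 to 0.833 among egressed, 0.726 to 0.893 among tumor-retained and 0.944 to 0.950 among spleen libraries. Cd8a stood at 837 to 1080 CPM (counts per M counts, TMM-scaled) in egressed, 649 to 1150 in tumor-retained and 879 to 1030 in spleen libraries, and Cd3e at 299 to 378, 263 to 558 and 556 to 725 CPM in the same order. Cd44, the marker used in the sort, stood at 49.7 to 128 CPM in egressed, 85.5 to 411 in tumor-retained and 85.2 to 141 in spleen libraries. Cd4 stayed under 4 CPM in every library, with a highest value of 3.86 CPM. Foxp3, a gene of regulatory T cells, went up to 45.2 CPM in egressed, 29.1 CPM in tumor-retained and 5.57 CPM in spleen libraries. The list of CD4 and regulatory T cell markers summed to 171 to 346 CPM in egressed, 672 to 2503 CPM in tumor-retained and 196 to 273 CPM in spleen libraries.

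The number of members changed whichever library was left out. It was 0 without egressed library 1, and 2 without egressed library 3, without egressed library 4 or without any 1 of the spleen libraries. It was 14, 19 and 18 without tumor-retained library 1, 2 or 3. With a library left out, 22814 to 23732 genes entered the test in place of 21457. What changed the number of members in these fits was not tested. For 8 of the 9 members the egressed mean stayed outside both in all 24 alternative settings, and for Dapl1 it did so in 20. Members were chosen by this order in the same libraries, so its steadiness is no check of it. In 7 of them all 4 egressed libraries lay beyond the 8 others, so leaving libraries out could hardly change the order.

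**Figure D1:**
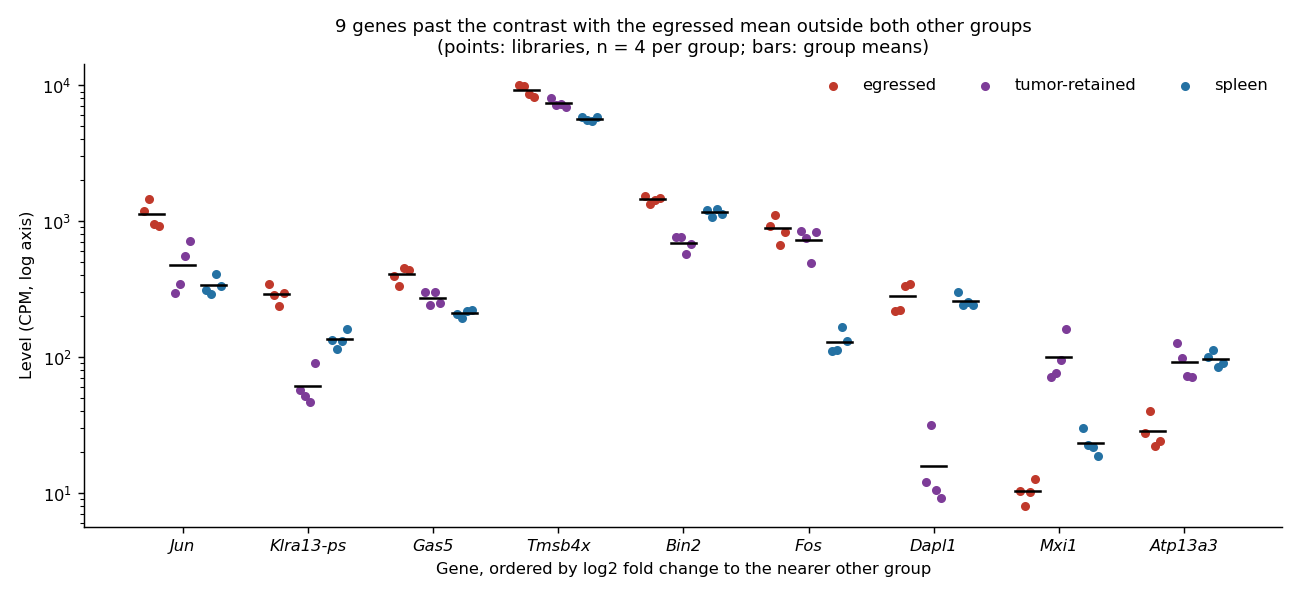
Level of each member in CPM on a log axis, in 4 egressed, 4 tumor-retained and 4 spleen libraries (points) with group means (bars), ordered by the signed log2 fold change to the nearer other group. Egressed libraries of Jun, at 927 to 1448 CPM, lie above all others, and those of Atp13a3, at 22.3 to 39.9 CPM, lie below all others.

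Promoter windows of 3 of the members above both are printed because these genes carry the transcription factor and small RNA results that follow. Each runs from 250 bases before to 50 bases after the RefSeq start of the gene (GRCm38.p6), and 6 of the 9 members have such a window. The Jun window is chr4:95052173-95052472 on the minus strand, and its capitals mark TGACATCA, a match to TGACNTCA that begins at position -45, with the start of the gene at 0. The Fos window is chr12:85473640-85473939 on the plus strand, and its capitals mark a match to an NF-kappa-B motif at position -214. The Gas5 window, the second of 2 in the table, is chr1:161034916-161035215 on the plus strand. Its capitals mark the cyclic AMP response element TGACGTCA at position -46 and a pyrimidine tract at position -1. The first Gas5 window holds neither.
Jun: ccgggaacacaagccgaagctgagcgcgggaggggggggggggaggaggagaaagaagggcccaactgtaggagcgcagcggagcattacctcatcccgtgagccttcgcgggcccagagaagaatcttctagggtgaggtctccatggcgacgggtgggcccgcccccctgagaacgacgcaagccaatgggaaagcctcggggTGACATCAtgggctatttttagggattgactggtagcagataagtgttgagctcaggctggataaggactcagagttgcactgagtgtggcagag
Fos: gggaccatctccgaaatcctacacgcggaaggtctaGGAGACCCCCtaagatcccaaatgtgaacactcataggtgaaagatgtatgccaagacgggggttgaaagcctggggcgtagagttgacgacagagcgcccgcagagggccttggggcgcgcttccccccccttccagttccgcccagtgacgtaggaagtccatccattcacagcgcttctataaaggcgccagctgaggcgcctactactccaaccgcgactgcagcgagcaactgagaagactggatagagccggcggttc
Gas5: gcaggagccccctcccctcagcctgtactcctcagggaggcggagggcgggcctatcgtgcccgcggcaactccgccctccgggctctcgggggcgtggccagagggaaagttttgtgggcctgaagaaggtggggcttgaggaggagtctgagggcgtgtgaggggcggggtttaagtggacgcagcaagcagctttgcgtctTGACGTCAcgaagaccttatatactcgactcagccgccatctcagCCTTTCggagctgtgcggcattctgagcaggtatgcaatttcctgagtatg
With both strands searched in the first window of each gene, TGACNTCA was found in 957 of 12733 windows, a share of 7.52%, and in those of Jun and Tmsb4x among the members. TGACGTCA, which is 1 form of TGACNTCA, was in 2.89% of windows and in none of the 6 members' first windows. The NF-kappa-B motif was in 9.72% of windows and, among the members, in that of Fos. The AP-1 motif TGANTCA was in 6.03% of all windows and in none of the 6 members' windows.

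Jun, the AP-1 subunit that can pair with itself or with Fos, was the member that also rose against each other site taken alone. Its levels were 1184, 1448, 955 and 927 CPM in egressed libraries, 297, 345, 557 and 720 CPM in tumor-retained libraries, and 315, 292, 407 and 336 CPM in spleen libraries. The 4 egressed libraries lay above all 8 others, and the tumor-retained libraries spread more widely than the spleen libraries. Jun was higher by 1.49 ± 0.22 (log2 fold change ± SE) against the average of both sites, with an adjusted p of 0.0361 (edgeR quasi-likelihood test, Benjamini-Hochberg adjustment over all genes tested, as for every adjusted p here). Against tumor-retained cells the difference was 1.23 ± 0.26 (edgeR adjusted p = 0.0472) and against spleen cells 1.74 ± 0.27 (edgeR adjusted p = 0.0209). Jun lies at chr4:95049034-95052222 (mm10, minus strand, protein coding) and overlaps the antisense gene Junos, whose reads cannot be told apart without strand. Its call was lost in 8 of the 12 fits with 1 library left out, where its adjusted p ran from 0.0112 to 0.131.

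Fos, the partner of Jun, was higher than in spleen cells and near the tumor-retained level. It stood at 928, 1121, 673 and 838 CPM in egressed libraries, 849, 748, 494 and 839 CPM in tumor-retained libraries, and 110, 113, 166 and 132 CPM in spleen libraries. The egressed and tumor-retained libraries overlapped, and both groups lay above all 4 spleen libraries. Fos passed the contrast at 1.52 ± 0.17 (edgeR adjusted p = 0.00676) and the test against spleen at 2.77 ± 0.22 (edgeR adjusted p = 0.00057), while against tumor-retained cells it differed by 0.28 ± 0.21 (edgeR adjusted p = 0.594). Fos (chr12:85473890-85477273, mm10, plus strand) thus counts as a member by the order of its means alone, as the size of the gap to tumor-retained cells was close to its error.

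Of the 14 AP-1 subunits tested, 2 rose in the contrast, Jun and Fos, against 0.0419% of all genes called higher and 0.00932% called lower. Among the 12 subunits other than Jun and Fos, the egressed mean lay above both others for 4 and below both for 2, against 29.3% and 35.8% of all genes. Junb, a further Jun protein, stood at 2260, 2566, 1334 and 1697 CPM in egressed, 1979, 1384, 746 and 1097 CPM in tumor-retained and 780, 934, 1047 and 915 CPM in spleen libraries, with a contrast of 0.84 ± 0.23 (edgeR adjusted p = 0.204). Over these 12 the median log2 fold change was -0.70 against tumor-retained cells and 0.96 against spleen cells. The summed level of the whole list was 3471 to 5735 CPM in egressed, 2911 to 3874 CPM in tumor-retained and 1612 to 2058 CPM in spleen libraries. That sum includes Jun and Fos, which were chosen by these same values, so it does not describe the other subunits. Of 26 other immediate early genes tested, 4 lay above both and 4 below both. None passed the contrast in edgeR. At an unadjusted p under 0.05, 4 of the 26 were higher and 1 lower, against 6% of all genes higher and 6.42% lower. DESeq2 called 3 of the 26 higher and 1 lower, against 1.79% of all genes higher and 2.05% lower. Ppp1r15a, which restarts translation after stress, had 1042, 1374, 716 and 698 CPM in egressed, 615, 686, 203 and 346 CPM in tumor-retained and 277, 268, 414 and 287 CPM in spleen libraries (1.34 ± 0.29, edgeR adjusted p = 0.125). Zfp36, which speeds the decay of cytokine messenger RNAs, had 548, 746, 543 and 727 CPM in egressed, 438, 320, 311 and 534 CPM in tumor-retained and 290, 322, 399 and 348 CPM in spleen libraries (0.80 ± 0.16, edgeR adjusted p = 0.121). In both genes all 4 egressed libraries lay above all 8 others, without passing the test.

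Mxi1 was the transcription factor that fell. Its protein binds Max and opposes Myc at shared target sites. Mxi1 stood at 10.3, 8.08, 10.2 and 12.7 CPM in egressed libraries, 70.9, 76.3, 94.6 and 161 CPM in tumor-retained libraries, and 30.1, 22.8, 22.0 and 18.9 CPM in spleen libraries. All egressed libraries lay below all others, and the tumor-retained libraries were the highest of the 3 groups. The contrast was -2.24 ± 0.30 (edgeR adjusted p = 0.0259), with -3.29 ± 0.34 against tumor-retained cells (edgeR adjusted p = 0.00138) and -1.19 ± 0.32 against spleen cells (edgeR adjusted p = 0.163). Mxi1 lies at chr19:53310518-53375810 (mm10, plus strand, protein coding), with 2 predicted genes on the other strand. Among 10 other tested genes of the Myc, Max and Mxd network, the egressed mean lay above both others for 0 and below both for 4. Over all genes these shares were 29.3% and 35.8%, so the share below both was near that of all genes. None of the 10 passed the contrast in edgeR. An unadjusted p under 0.05 was found for 2, where 6% of all genes were higher and 6.42% lower. Myc itself lay between the other groups, with a mean of 282 CPM in egressed, 126 CPM in tumor-retained and 331 CPM in spleen cells. It passed the test against tumor-retained cells (edgeR adjusted p = 0.0456). Mxd1 also lay between, and it passed both pairwise tests in opposite directions. It differed by 1.52 against spleen cells (edgeR adjusted p = 0.0209) and by -1.71 against tumor-retained cells (edgeR adjusted p = 0.00739).

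Gas5, a noncoding RNA whose introns give rise to small nucleolar RNAs, rose in egressed cells. It had 398, 336, 453 and 438 CPM in egressed libraries, 301, 241, 299 and 253 CPM in tumor-retained libraries, and 207, 195, 217 and 222 CPM in spleen libraries. The 3 groups did not overlap, with egressed cells highest and spleen cells lowest. The contrast was 0.76 ± 0.11 (edgeR adjusted p = 0.0361), with 0.95 ± 0.13 against spleen cells (edgeR adjusted p = 0.0138) and 0.57 ± 0.13 against tumor-retained cells (edgeR adjusted p = 0.0659). Gas5 (chr1:161034422-161038539, mm10, plus strand) overlaps Zbtb37 on the other strand and holds several small nucleolar RNA genes, so its counts may include reads of these. It had the fewest calls among the members when 1 library was left out, 2 of 12.

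Most other host genes of small nucleolar RNAs had the egressed mean above both other groups, in a group drawn up after the values were seen and therefore not tested. Of 14 such genes in the fit besides Gas5, the egressed mean lay above both others in 11 and below both in 1. Over all genes tested these shares were 29.3% and 35.8%. All 4 egressed libraries lay above the 8 others in 4 of the 14, against 0.657% of all genes tested. The median contrast over the 14 was 0.79, against -0.05 over all genes tested. Snhg15 had 133, 86.4, 143 and 165 CPM in egressed, 39.6, 57.0, 61.3 and 85.7 CPM in tumor-retained and 58.5, 51.3, 66.9 and 67.4 CPM in spleen libraries (1.11 ± 0.22, edgeR adjusted p = 0.111). Snhg8 had 34.8, 44.1, 40.6 and 43.0 CPM in egressed, 17.5, 21.6, 14.9 and 11.4 CPM in tumor-retained and 14.7, 15.2, 18.0 and 15.6 CPM in spleen libraries (1.33 ± 0.28, edgeR adjusted p = 0.123). None of the 14 passed the contrast in edgeR. An unadjusted p under 0.05 was found for 7, where 6% of all genes were higher and 6.42% lower.

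Tmsb4x, which encodes thymosin beta 4, a small protein that holds actin monomers in reserve, was the most abundant member. Its levels were 10086, 9897, 8673 and 8154 CPM in egressed libraries, 8010, 7217, 7270 and 6894 CPM in tumor-retained libraries, and 5867, 5564, 5425 and 5888 CPM in spleen libraries. The groups did not overlap, although the lowest egressed library was close to the highest tumor-retained library. The contrast was 0.51 ± 0.08 (edgeR adjusted p = 0.0361), with 0.69 ± 0.09 against spleen cells (edgeR adjusted p = 0.0114) and 0.32 ± 0.09 against tumor-retained cells (edgeR adjusted p = 0.103). Tmsb4x lies at chrX:167207093-167209315 (mm10, minus strand, protein coding).

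Bin2, a membrane-shaping BAR domain protein of blood cells, was separated chiefly from tumor-retained cells. It had 1523, 1349, 1438 and 1476 CPM in egressed libraries, 760, 768, 574 and 677 CPM in tumor-retained libraries, and 1212, 1074, 1222 and 1132 CPM in spleen libraries. Again the 3 groups did not overlap, with tumor-retained cells lowest. Bin2 was higher by 0.69 ± 0.09 in the contrast (edgeR adjusted p = 0.0259) and by 1.06 ± 0.11 against tumor-retained cells (edgeR adjusted p = 0.00138), and differed by 0.32 ± 0.11 against spleen cells (edgeR adjusted p = 0.325). It lies at chr15:100641077-100669553 (mm10, minus strand, protein coding).

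Klra13-ps, an annotated pseudogene of the Ly49 family of killer lectin receptors, had the lowest adjusted p among the members. Its levels were 347, 285, 236 and 296 CPM in egressed libraries, 57.4, 51.7, 46.5 and 90.4 CPM in tumor-retained libraries, and 133, 114, 131 and 162 CPM in spleen libraries. The 3 groups did not overlap. The contrast was 1.67 ± 0.18 (edgeR adjusted p = 0.00502), with 2.24 ± 0.23 against tumor-retained cells (edgeR adjusted p = 0.00138) and 1.11 ± 0.22 against spleen cells (edgeR adjusted p = 0.0601). Klra13-ps (chr6:130290878-130306428, mm10, minus strand) has near-identical neighbours, and the counting may have divided reads among them, so the gene of origin is uncertain. Of 13 Klra genes tested, Klra13-ps was the 1 that passed. Klra7, for example, averaged 80.1 CPM in egressed, 185 CPM in tumor-retained and 19.7 CPM in spleen cells, a level between those of the other groups.

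Dapl1, a small protein transcribed in naive and memory T cells, was low in tumor-retained cells, with egressed and spleen cells close to each other. It had 218, 221, 332 and 347 CPM in egressed libraries, 12.0, 31.7, 10.5 and 9.19 CPM in tumor-retained libraries, and 302, 244, 253 and 241 CPM in spleen libraries. Egressed and spleen libraries overlapped. The contrast was 2.12 ± 0.29 (edgeR adjusted p = 0.0259), with 0.10 ± 0.35 against spleen cells (edgeR adjusted p = 1.00), so that its place above both means is within its error. Under 4 of the 24 alternative settings the egressed mean lay between the other means. Dapl1 lies at chr2:59484653-59505020 (mm10, plus strand, protein coding).

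Atp13a3, a membrane ATPase that takes up polyamines, was the member that fell against each site taken alone. It stood at 27.8, 39.9, 22.3 and 24.1 CPM in egressed libraries, 128, 98.3, 73.2 and 71.0 CPM in tumor-retained libraries, and 101, 113, 85.1 and 90.4 CPM in spleen libraries. The egressed libraries lay below all others, and the other groups overlapped. The contrast was -1.73 ± 0.24 (edgeR adjusted p = 0.0269), with -1.70 ± 0.26 against tumor-retained cells (edgeR adjusted p = 0.0104) and -1.77 ± 0.26 against spleen cells (edgeR adjusted p = 0.0194). Atp13a3 lies at chr16:30312423-30405975 (mm10, minus strand) and has 9938 bases of annotated exon, the longest of the members. When library offsets were fitted to exon length, a correction added after seeing the data, its contrast was -1.48 with an adjusted p of 0.0746 (edgeR).

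Past both pairwise tests in the same direction were 4 genes, a share of 0.0186%: Jun above, and Atp13a3, Rnf24 and Zfp467 below. The separate tests called 235 genes against tumor-retained cells, a share of 1.1%, and 79 against spleen cells, a share of 0.368%. Both tests use the same egressed libraries, so their calls are not independent of each other. Rnf24 and Zfp467 are named after their values were seen, as they did not pass the contrast (edgeR adjusted p = 0.0774 for Rnf24 and 0.111 for Zfp467). Rnf24, a RING finger protein, had 0 counts in all 4 egressed libraries, against 29.5, 2.21, 4.09 and 9.72 CPM in tumor-retained and 1.96, 4.05, 3.11 and 1.64 CPM in spleen libraries. With a floor of 3 counts in each egressed library, Rnf24 was at least 100-fold lower than in tumor-retained cells and at least 23.7-fold lower than in spleen cells. Without tumor-retained library 1, its highest, the bound against tumor-retained cells was 47.1-fold. Zfp467, a zinc finger protein, also had 0 counts in all 4 egressed libraries, against 0.184, 1.49, 1.16 and 0.622 CPM in tumor-retained and 7.76, 1.19, 3.33 and 6.40 CPM in spleen libraries. These levels are low, and the number of genes past both tests moved when 1 library was left out. The count was 0 without egressed library 1, without egressed library 4 or without any 1 of the spleen libraries, and 15 without tumor-retained library 1. It was 1 without egressed library 3 and 2 without egressed library 2.

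**Figure D2:**
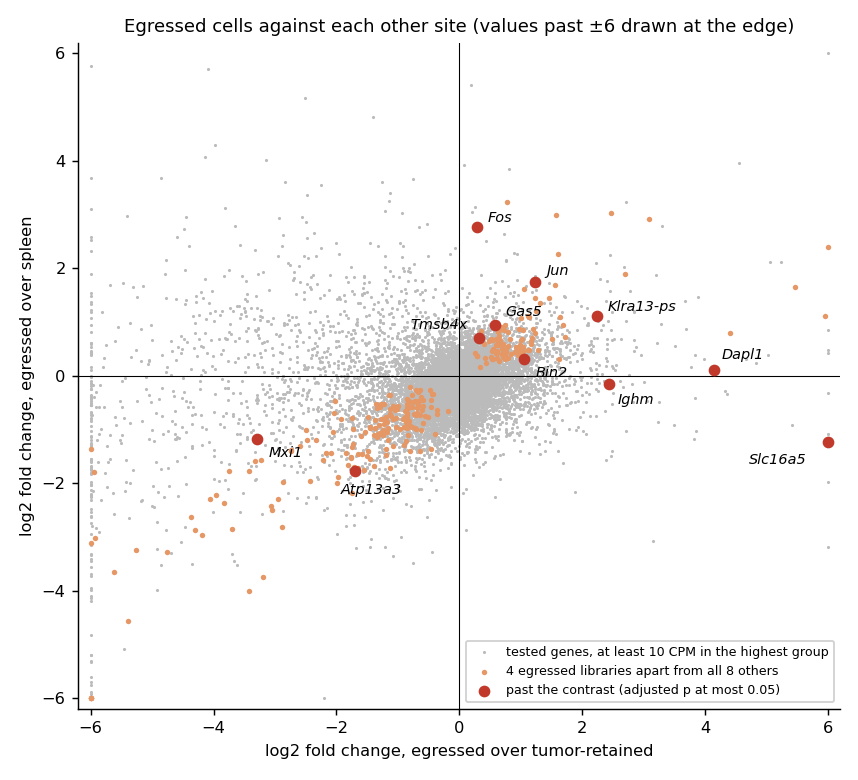
Log2 fold change of egressed over tumor-retained cells (horizontal) and over spleen cells (vertical) for tested genes with a mean of at least 10 CPM in the highest group, with genes whose 4 egressed libraries lay apart from all 8 others in orange and the 11 genes past the contrast in red. Jun at 1.23 and 1.74 and Atp13a3 at -1.70 and -1.77 lie far from both axes, whereas Fos and Dapl1 lie close to 1 of them.

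The genes nearest to the threshold were of the same size as the members. Just inside it were Jun, Gas5 and Tmsb4x, all at an adjusted p of 0.0361 (edgeR). Just outside it were Tmbim6 and Ncf1, both at 0.0525, and Cd52 at 0.0535 (edgeR adjusted p). Cd52, a short surface glycoprotein of lymphocytes, had 1347, 1392, 1593 and 1259 CPM in egressed, 1094, 975, 1054 and 901 CPM in tumor-retained and 942, 905, 880 and 855 CPM in spleen libraries. Tmbim6, an inhibitor of Bax-driven death in the endoplasmic reticulum, had 42.8, 46.2, 46.6 and 30.2 CPM in egressed, 64.8, 69.7, 75.4 and 78.7 CPM in tumor-retained and 112, 114, 108 and 102 CPM in spleen libraries. Ncf1, a subunit of the NADPH oxidase, had 9.19, 14.8, 12.2 and 17.4 CPM in egressed, 71.5, 64.1, 74.9 and 90.7 CPM in tumor-retained and 22.2, 28.8, 33.0 and 23.6 CPM in spleen libraries. In these 3 genes the egressed libraries did not overlap with any other. Ccr8, a chemokine receptor, had 0 counts in all 4 egressed libraries, against 33.3, 16.2, 11.1 and 16.1 CPM in tumor-retained and 0.309, 2.44, 0.191 and 1.09 CPM in spleen libraries (edgeR adjusted p = 0.0749). At the same floor it was at least 169-fold lower than in tumor-retained cells and at least 8.89-fold lower than in spleen cells. Without spleen library 2, its highest spleen library, the bound against spleen cells was 4.67-fold.

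By position alone, with no test, all 4 egressed libraries lay above all 8 others in 141 genes, a share of 0.657%, and below all 8 in 203 genes, a share of 0.946%. Members made up 7 of these 344 genes, which are 1.6% of those tested, and Fos and Dapl1 were the members not among them. Over all genes tested, 1288 were higher and 1378 lower in the contrast at an unadjusted p under 0.05. Among genes that reached 10 CPM, 102 lay above all and 178 below all. Those matched to the annotation differed in length: the median exon length was 2449 bases for 100 genes above, 5797 bases for 176 genes below and 4620 bases for all 9657 genes of that level. Ribosomal protein genes made up 27 of the 100, and without them the median was 2937 bases.

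Transcript length moved with the contrast across the 9657 annotated genes that reached 10 CPM in their highest group. The median log2 fold change was 0.20 for 250 genes under 1 kb, 0.05 for 909 genes of 1 to 2 kb, -0.06 for 2832 genes of 2 to 4 kb, -0.17 for 3801 genes of 4 to 8 kb and -0.31 for 1865 genes over 8 kb. The order was the same against tumor-retained cells, with 0.16 for the shortest class and -0.22 for the longest, and against spleen cells, with 0.27 and -0.37. In the longest class the libraries deviated from the mean of all 12 by -0.26 to -0.08 in egressed, by -0.14 to 0.16 in tumor-retained and by 0.20 to 0.32 in spleen libraries, on the log2(CPM + 1) scale. With the length offset 7 genes passed the contrast, 0.028% of all genes higher and 0.00466% lower, and 5 lay outside both groups. Jun (edgeR adjusted p = 0.0133), Fos (0.00867), Klra13-ps (0.0202), Gas5 (0.0332) and Mxi1 (0.0332) were those 5, and Atp13a3, Bin2, Dapl1 and Tmsb4x did not pass. The log2 fold changes of these 4 under the offset were -1.48 for Atp13a3, 0.73 for Bin2, 1.91 for Dapl1 and 0.43 for Tmsb4x, against -1.73, 0.69, 2.12 and 0.51 without it. What sets the length trend was not tested.

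**Figure D3:**
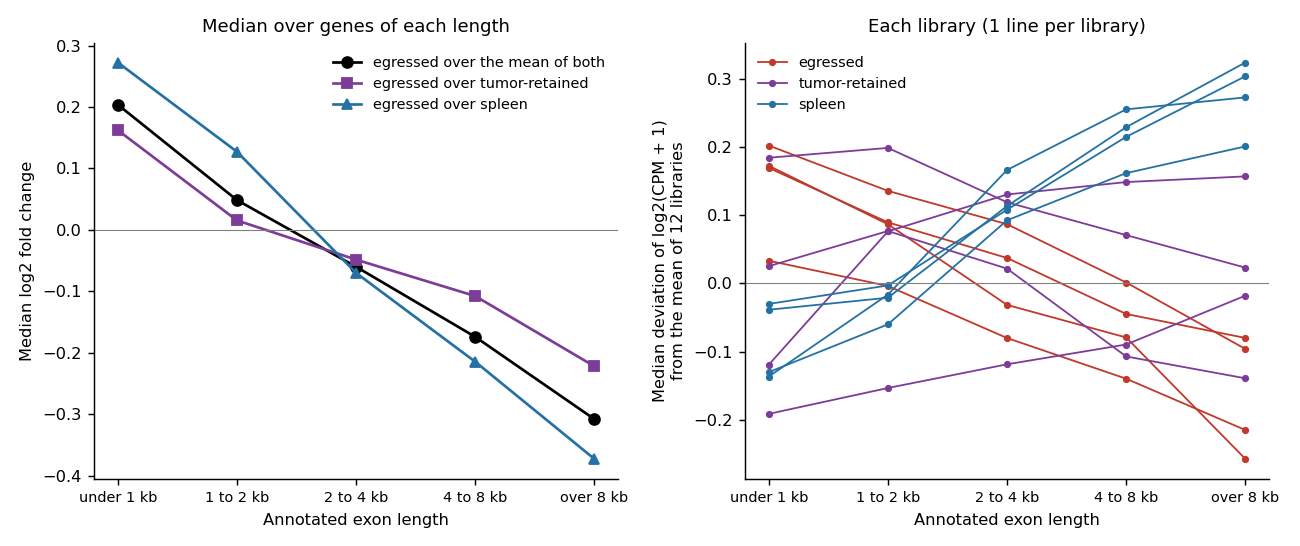
Left, median log2 fold change of egressed cells by class of annotated exon length, against the mean of both sites, tumor-retained cells and spleen cells. Right, median deviation of each library from the mean of 12 libraries on the log2(CPM + 1) scale, where the lines of egressed libraries slope down and those of spleen libraries slope up toward the longest class.

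Cytosolic ribosomal protein genes lay above both other groups more often than any other list examined. The egressed mean was above both for 72 of 87 tested genes, below both for 1 and between for 14. Over all genes 29.3% lay above both and 35.8% below both. All 4 egressed libraries lay above the 8 others for 28 of the 87, against 0.657% of all genes. None passed the contrast in edgeR, while 55 were higher and 0 lower at an unadjusted p under 0.05, where 6% of all genes were higher. DESeq2 called 33 of the 87 higher, against 1.79% of all genes, and limma-voom called 12 higher, against 0.168%. With a filter of 5 CPM in 4 libraries edgeR called 16 of 82 higher, against 0.569% of all genes. The median contrast was 0.43 and stayed above that of all genes in 11 alternative settings, including 0.39 with the length offset, under which edgeR called 0. Together the 89 listed genes took 3.92, 3.92, 3.73 and 3.63% of all counts in egressed libraries, 2.83, 2.30, 2.75 and 1.79% in tumor-retained libraries and 3.03, 3.19, 2.59 and 2.88% in spleen libraries. The lowest egressed library thus lay above the highest of the others.

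Rpl10a, a protein of the large subunit, had 367, 309, 297 and 370 CPM in egressed, 143, 155, 203 and 156 CPM in tumor-retained and 240, 271, 225 and 238 CPM in spleen libraries. It differed by 0.75 ± 0.12, with an edgeR adjusted p of 0.0650, the lowest of the list. Rps7, a protein of the small subunit, had 733, 707, 667 and 762 CPM in egressed, 442, 379, 452 and 322 CPM in tumor-retained and 584, 561, 506 and 519 CPM in spleen libraries (0.63 ± 0.11, edgeR adjusted p = 0.0749). Rpl39 had 190, 211, 212 and 211 CPM in egressed, 124, 144, 152 and 107 CPM in tumor-retained and 117, 132, 97.0 and 111 CPM in spleen libraries (0.75 ± 0.13, edgeR adjusted p = 0.0808). The pyrimidine tract searched for, like that in the second Gas5 window, was a C followed by pyrimidines, at least 6 letters in all. It had to begin within 10 bases of the start. In the first window of each gene it was found in 31 of 63 ribosomal protein windows, or 49.2%. It was in 20.1% of all windows and in none of the 6 members' windows. This search and that for TGACNTCA were chosen after seeing the data. Of 80 mitochondrial ribosomal protein genes, 42 lay above both and 18 below both, against 29.3% and 35.8% of all genes. All 4 egressed libraries lay above the 8 others in 2 of the 80, against 0.657% of all genes. Reads of ribosomal protein genes can also come from their many processed pseudogenes, and whether the counting separated them was not tested.

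**Figure D4:**
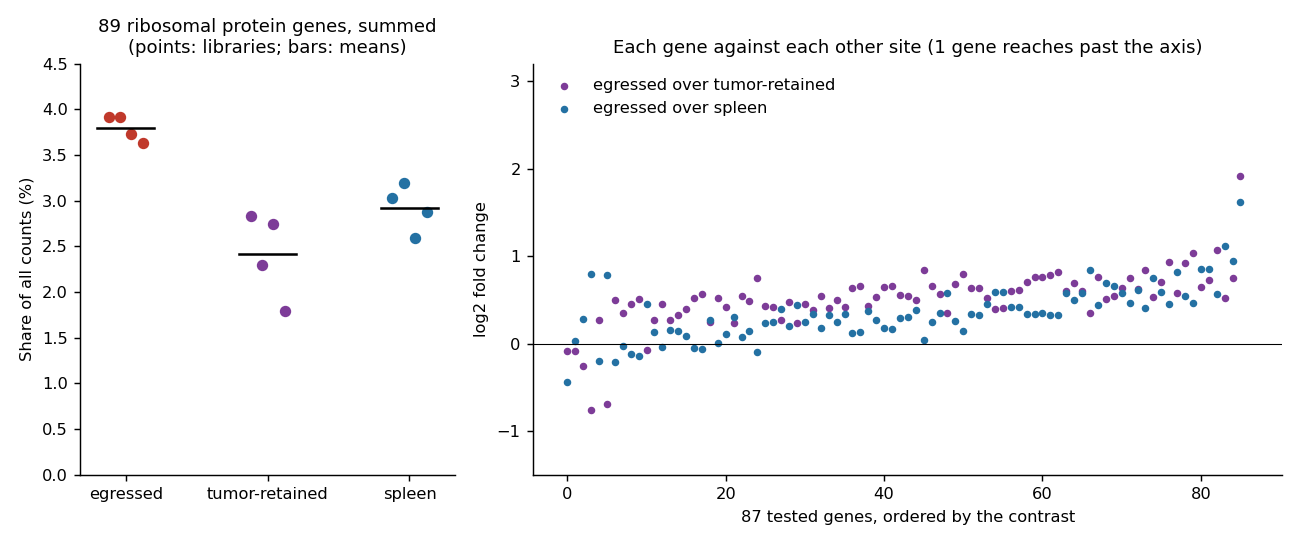
Left, share of all counts that fell on 89 cytosolic ribosomal protein genes in each library (points) with group means (bars), on an axis from 0. Right, log2 fold changes of 87 tested genes over tumor-retained and over spleen cells, ordered by the contrast, with 1 gene past the axis; egressed libraries hold 3.63 to 3.92%, above all others.

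Most interferon-stimulated genes had their highest mean in egressed cells, without passing the test. The egressed mean lay above both others for 17 of 26 and below both for 2, against 29.3% and 35.8% of all genes. The median contrast was 0.47, and none was called in edgeR. DESeq2 called 2 higher, against 1.79% of all genes. At an unadjusted p under 0.05, 4 were higher, against 6%. Mx1, an antiviral GTPase, had 133, 61.3, 70.3 and 81.0 CPM in egressed, 87.8, 47.3, 35.1 and 61.0 CPM in tumor-retained and 25.1, 26.3, 29.1 and 23.2 CPM in spleen libraries (1.16 ± 0.27, edgeR adjusted p = 0.151). Irf7, which drives the interferon response, had 408, 282, 410 and 414 CPM in egressed, 434, 292, 161 and 221 CPM in tumor-retained and 191, 190, 274 and 191 CPM in spleen libraries (0.64 ± 0.23, edgeR adjusted p = 0.274). In neither gene were the egressed libraries apart from the tumor-retained libraries.

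Most glycolytic genes had their lowest mean in egressed cells, also without passing. The egressed mean lay below both others for 11 of 16 and above both for 0, against 35.8% and 29.3% of all genes. The median contrast was -0.71. None passed the contrast in edgeR. DESeq2 called 5 lower, against 2.05% of all genes, and 11 were lower at an unadjusted p under 0.05, against 6.42%. In edgeR 9 passed the test against tumor-retained cells, where 1.1% of all genes passed. None passed against spleen cells, where 0.368% of all genes passed. Ldha, lactate dehydrogenase A, had 765, 724, 522 and 465 CPM in egressed, 1461, 1017, 1698 and 1838 CPM in tumor-retained and 906, 910, 875 and 863 CPM in spleen libraries (-0.90 ± 0.18, edgeR adjusted p = 0.111). Eno1, enolase, had 751, 805, 546 and 802 CPM in egressed, 1519, 1241, 2113 and 2609 CPM in tumor-retained and 1060, 1045, 1061 and 1015 CPM in spleen libraries (-0.95 ± 0.19, edgeR adjusted p = 0.111). In both genes the egressed libraries lay below all others. Ldha and Eno1 were called lower by edgeR when genes had to reach 5 CPM in 4 libraries, against 0.152% of all genes in that fit. Without tumor-retained libraries 3 and 4, the 2 with the highest stromal and macrophage transcripts, the median over the list was -0.41, and 1 gene was called lower, against 0.0346% of all genes in that fit.

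Integrin and survival genes had no member above both other groups, while their shares below both were nearer to the 35.8% of all genes. For the 13 integrin subunits tested the egressed mean lay below both others in 6 and above both in 0, where 29.3% of all genes lay above both. All 4 egressed libraries lay below the 8 others in 3, against 0.946% of all genes. None was called by edgeR or DESeq2, and 3 were lower at an unadjusted p under 0.05, against 6.42% of all genes. The integrin genes are long, with a median exon length of 5901 bases and 4 of them over 8 kb. Of genes that reached 10 CPM, 41.9% of those of 4 to 8 kb and 51.5% of those over 8 kb lay below both, so the integrin share of 46.2% is near that of genes of like length. Itgal, the alpha chain of LFA-1, had 728, 686, 694 and 675 CPM in egressed, 766, 1124, 750 and 1134 CPM in tumor-retained and 942, 897, 923 and 748 CPM in spleen libraries (-0.39 ± 0.13, edgeR adjusted p = 0.268). Of 16 Bcl2 family genes, 7 lay below both, a share of 43.8%, and 0 above both, with 0 called by edgeR, 2 called lower by DESeq2 and 2 lower at an unadjusted p under 0.05. Mcl1, a short-lived survival protein, had 565, 425, 478 and 515 CPM in egressed, 732, 836, 763 and 1187 CPM in tumor-retained and 714, 626, 686 and 710 CPM in spleen libraries (-0.65 ± 0.14, edgeR adjusted p = 0.123). Of 20 cholesterol synthesis genes, 12 lay below both, a share of 60%, and 2 above both, with 0 called by edgeR, 2 called lower by DESeq2 and 4 lower at an unadjusted p under 0.05. Of 19 effector and residency factors, 7 lay below both, a share of 36.8% that is close to that of all genes, and 0 above both. For these 3 lists the calls by DESeq2 are to be set against 2.05% of all genes called lower, and those at an unadjusted p against 6.42%.

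**Figure D5:**
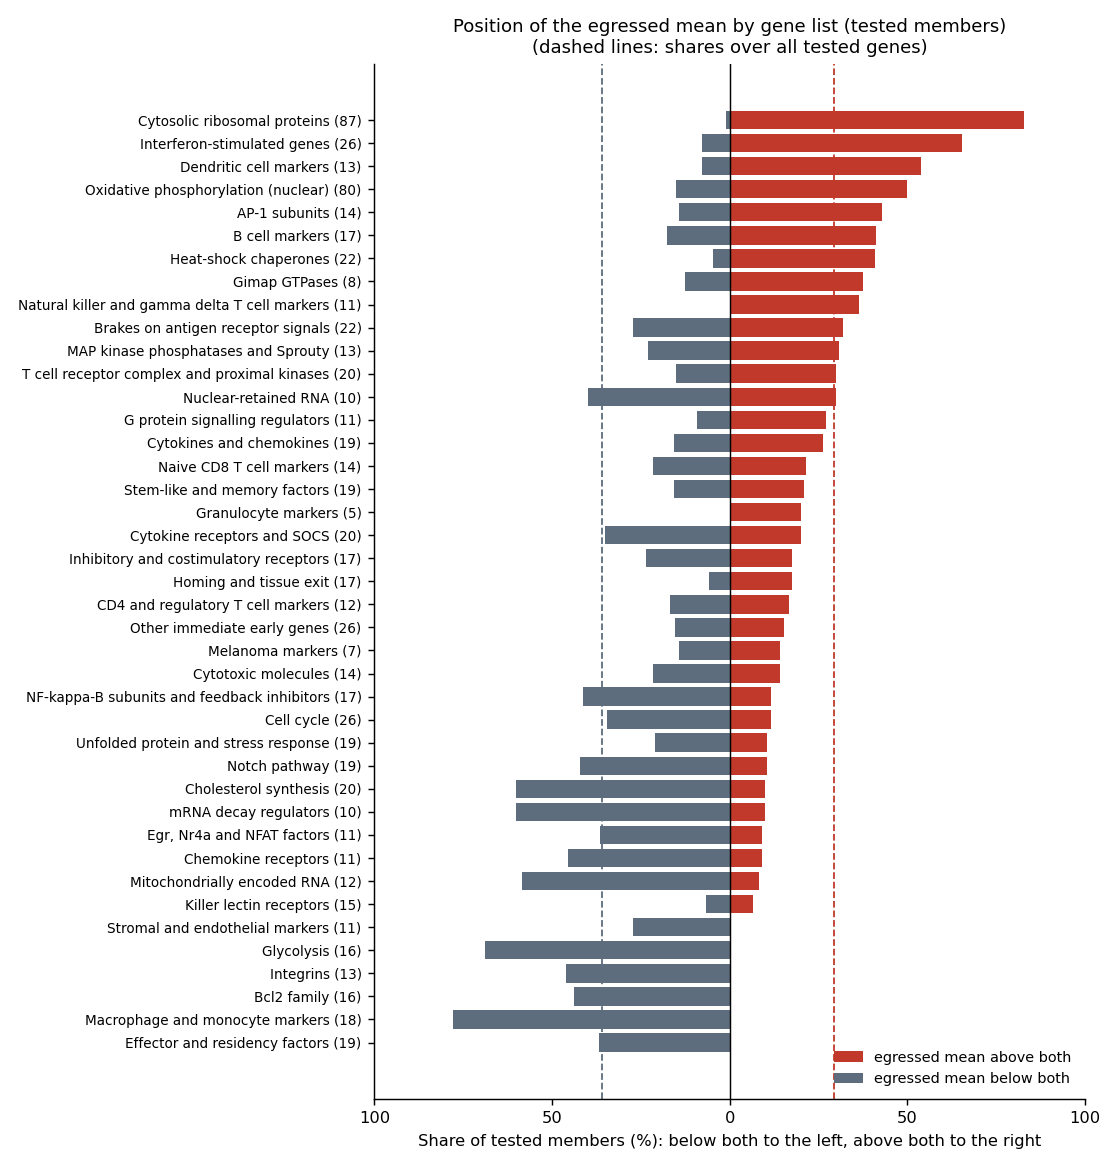
Share of tested members of each gene list whose egressed mean lay above both other groups (red, right) or below both (grey, left), with the number tested in brackets and the shares over all tested genes, 29.3% and 35.8%, as dashed lines. Cytosolic ribosomal proteins reach furthest to the right and macrophage and monocyte markers furthest to the left.

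Transcripts of other cell types were present at uneven levels. Macrophage and monocyte markers lay below both for 14 of 18 and summed to 134 to 284 CPM in egressed, 220 to 4467 CPM in tumor-retained and 171 to 260 CPM in spleen libraries. Stromal and endothelial markers summed to 91.3 to 144 CPM in egressed, 157 to 3204 CPM in tumor-retained and 160 to 178 CPM in spleen libraries. Lyz2, a macrophage gene, reached 68.1 CPM at the most in egressed, 951 CPM in tumor-retained and 12.0 CPM in spleen libraries, and Col3a1, a collagen gene, reached 3.60, 952 and 1.31 CPM in the same order. Dendritic cell markers, the other main antigen-presenting cells of a lymph node, summed to 818 to 1244 CPM in egressed, 453 to 1032 CPM in tumor-retained and 963 to 1090 CPM in spleen libraries, a sum led by Ccr7, which T cells also express. Their egressed mean lay above both others in 7 of 13 and below both in 1, with a median contrast of 0.68. None was called by edgeR or DESeq2, and none had an unadjusted p under 0.05. The B cell sum was 752 to 1123 CPM in egressed and 717 to 987 CPM in spleen libraries, carried chiefly by Ighm. In tumor-retained libraries the sum was 122 to 3093 CPM. There Ighm was lower than in egressed cells, and Cd74, another gene of the list, reached 1080 CPM. B cell markers lay above both in 7 of 17 and below both in 3, with a median contrast of 0.40. Over all genes tested, to be set beside each of these marker lists, 29.3% lay above both and 35.8% below both. Of the 17 B cell markers, edgeR called 1 higher, Ighm, against 0.0419% of all genes. At an unadjusted p under 0.05, 4 were higher and 1 lower, against 6% and 6.42% of all genes. Among defining B cell genes Cd79a reached 9.49 CPM and Ms4a1 5.03 CPM at the most in egressed libraries and both were at 0 in at least 1 of them. Cd22 was the exception, with 159, 78.6, 115 and 116 CPM in egressed, 0.0307, 29.8, 18.9 and 23.4 CPM in tumor-retained and 35.8, 37.3, 31.6 and 21.3 CPM in spleen libraries (2.29 ± 0.78, edgeR adjusted p = 0.263). Their part in the members' differences was not tested.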

How the data were processed

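RNA from sorted CD44+ CD8+ T cells was sequenced in 12 libraries, 4 per group, made with the SMART-Seq v4 kit per the labels' protocols, which adds no molecular identifiers. The authors deposited raw counts per gene symbol, which were used as they stand, and a table of normalized log2 values, which was not used. Build mm10 and the tools STAR 2.7.3a, Cufflinks 2.2.1, cutadapt 2.5 and Bowtie2 2.5.1 are listed, with no roles, per the submitters' processing notes. The sources used here do not state the counting program, its annotation or its strand setting.

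Genes were filtered with filterByExpr of edgeR 4.0.16 (R 4.3.3), which kept 21457 of 48397 symbols, scaled with TMM and fitted with glmQLFit in 1 model of 3 groups with no block. The contrast of egressed cells against the average of the other group means, and each pairwise contrast, was tested with glmQLFTest, 2-sided, with Benjamini-Hochberg adjustment over all genes at 0.05. The fit had 9 residual and 3.19 prior degrees of freedom and a common coefficient of biological variation of 1.21. CPM are TMM-scaled, and a count of 0 allowed up to 3 counts per library; floors cover counting error only. The labels name 4 mice but do not say that libraries came from separate mice, so p-values measure the spread between these libraries, which may be technical in part. No library was a copy of another (lowest chi-square per degree of freedom 17.9).

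The members and gene lists were chosen with earlier results of these data known. Named genes are the members with at least 10 CPM whose 4 egressed libraries lay outside all 8 others, up to 4 genes of each pathway list outside both other means with the smallest p, the 3 most abundant markers of other cells, and the genes nearest the threshold. Fos and Dapl1 enter as members of lists and Klra7, Myc, Mxd1, Snhg8, Snhg15, Foxp3, Cd79a, Ms4a1, Cd22 and Col3a1 as values seen afterwards. Positions come from GENCODE M21, which matched 96.3% of the tested symbols (27 symbols turned into dates, 24 of them tested, are not named), and promoter windows from RefSeq. Alternatives were other scaling factors, filters, DESeq2 1.42.0, limma-voom (limma 3.58.1), a replicate block, libraries left out and, added after seeing the data, offsets for exon length. The fit was tested on simulated counts.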

Additional observations from a re-analysis of the deposited data

Results flagged for a closer look

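Dapl1 stood at 31.7 CPM in tumor-retained library 2, against 12.0, 10.5 and 9.19 CPM in tumor-retained libraries 1, 3 and 4. The gap to the nearest of the others was 0.876 of the whole range of the group, above Dixon's 95% limit for 4 libraries. It was the 1 such value among 39 groups of 4 libraries examined, and chance alone gives about 1 in 20. All 4 values lay far below the egressed range of 218 to 347 CPM and the spleen range of 241 to 302 CPM.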

How the results depend on the processing

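The contrast passed 11 genes, 9 of them outside both groups, and 4 genes passed both pairwise tests. The same counts were 17, 16 and 5 with RLE size factors, 19, 17 and 7 with library size alone, 13, 12 and 2 with upper quartile factors, 10, 8 and 2 with no filter, and 76, 70 and 15 with a filter of 5 CPM in 4 libraries, which tested 10553 genes. They were 825, 783 and 156 with DESeq2, 54, 49 and 18 with limma-voom and 45, 39 and 22 with library weights added. They were 69, 52 and 4 without tumor-retained libraries 3 and 4, 10, 7 and 14 without the 3 libraries with fewest genes (sharing 3, 1 and 1 genes with the original calls), and 7, 5 and 1 with the offset for exon length. Leaving out 1 library gave 2 to 21, 0 to 19 and 0 to 15. With the replicate block they were 3, 1 and 1; deviations of same-numbered libraries had correlations of -0.12 to 0.12, and a library matched its own number best in 5 of 24 cases. The labels number the libraries alike in every group, 1 to 4 in titles and 1, 2, 4 and 5 in descriptions, but do not say that equal numbers share a mouse. The numbers were therefore not used as pairs. No result changed sign while past its threshold. The all-gene median was -0.05 and ran from -0.34 with limma-voom to 0.11 with upper quartile factors. Over 24 settings Fos and Klra13-ps passed the contrast in 22, Dapl1 and Jun in 14, Bin2 and Mxi1 in 12, and Atp13a3, Gas5 and Tmsb4x in 11. The cause of these differences was not tested, beyond the number of genes or libraries that enter. Genes with 0 counts are bounded only by the floor.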

Other observations

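Of the lists not described above, the 80 nuclear genes of oxidative phosphorylation had the egressed mean above both other groups in 40 and below both in 12, with a median contrast of 0.12, 0 called by edgeR, 9 higher and 3 lower at an unadjusted p under 0.05, and 2 higher and 1 lower called by DESeq2. Over all genes the shares were 29.3% above both and 35.8% below both, 6% higher and 6.42% lower at an unadjusted p under 0.05, and 1.79% higher and 2.05% lower in DESeq2, so the calls of this list are near those of all genes. Ndufa7, a subunit of respiratory complex I, had 98.9, 107, 115 and 112 CPM in egressed, 109, 102, 109 and 84.0 CPM in tumor-retained and 69.0, 69.9, 71.5 and 65.7 CPM in spleen libraries. Heat-shock chaperones lay above both in 9 of 22 and below both in 1. Hspa1a, an inducible chaperone whose copy Hspa1b is near-identical, had 427, 598, 358 and 315 CPM in egressed, 118, 268, 966 and 258 CPM in tumor-retained and 29.6, 12.0, 26.3 and 44.4 CPM in spleen libraries, with an edgeR adjusted p of 0.145 in the contrast. Of 10 regulators of messenger RNA decay, 6 lay below both and 1, Zfp36, above both, and of 19 Notch pathway genes, 8 lay below both and 2 above both.

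A pair of annotated small nuclear RNA genes, chosen after their values were seen, also had all 4 egressed libraries above the 8 others. Gm24265 (chr5:115489459-115489599, mm10, plus strand) had 22.7, 18.5, 44.0 and 33.7 CPM in egressed, 3.35, 5.08, 8.73 and 4.33 CPM in tumor-retained and 3.26, 2.09, 3.56 and 5.68 CPM in spleen libraries, with a contrast of 2.75 ± 0.46 (edgeR adjusted p = 0.0749). Its neighbour Gm24407 (chr5:115490254-115490394, mm10, plus strand) had 8.29, 13.5, 22.2 and 15.2 CPM in egressed, 0.952, 1.96, 2.64 and 1.39 CPM in tumor-retained and 1.61, 1.74, 2.45 and 2.04 CPM in spleen libraries, with a contrast of 3.00 ± 0.54 (edgeR adjusted p = 0.0885). Both are annotated at 141 bases, and near-identical copies may share their reads.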
